A study of Homo sapiens with 6 samples.

Results

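The genes described are the Notch receptors NOTCH1, NOTCH2 and NOTCH3, the ligands JAG1, JAG2 and DLL1, the fringe glycosyltransferases LFNG, MFNG and RFNG, and PSENEN, a subunit of gamma-secretase. Every probe set whose RefSeq accession belongs to these 10 genes was taken, which gave 11 of the 1259 probe sets on a focused glycogene array and 10 of its 927 named genes. LFNG alone had more than 1 probe set, and no filter on low values was applied. The 10 genes were chosen from the wider pathway after differences between the 2 groups of arrays had been seen. Their differences are therefore a description: each carries its standard error (SE), but no test of a single gene is given.

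The arrays came from HCT116, an established line from a microsatellite-unstable colorectal cancer. By the sample titles the cells carried wild-type ACVR2, an activin receptor gene, under a doxycycline-inducible system, whereas the source labels name TGFBR2, ACVR2 and AIM2 together as inducible. All 6 samples received activin A; 3 also received doxycycline (+DOX) and 3 did not (-DOX). Doxycycline was not given to cells lacking the construct, so the drug and the induced receptor cannot be told apart. Dose, time of induction, the number of clones and whether replicates were separate cultures were not given in the sources used here, so spread between replicates may be technical.

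Notch receptors are cut and released by contact with Jagged or Delta ligands on a neighbouring cell. Gamma-secretase makes the last cut, inside the membrane, and frees a receptor fragment that switches on targets such as HES1 together with RBPJ. Fringes lengthen O-linked fucose on the receptors' EGF-like repeats and thereby shift their preference between Delta and Jagged ligands. In the intestinal crypt this signalling keeps progenitor cells dividing and turns cells away from secretory fates.

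Values are log2 expression after RMA, so a difference of 1 is a doubling, and values of different probe sets are not compared with each other as levels. The ACVR2A probe set did not read higher with doxycycline: it was at 8.15, 8.02 and 8.08 in +DOX replicates 1, 2 and 3, and at 8.25, 8.07 and 8.70 in -DOX replicates 1, 2 and 3 (difference -0.26, SE 0.16; limma, adjusted p = 0.71). Whether its probes lie in the introduced sequence is not known, and groups are named by label throughout. The array of -DOX replicate 3 stood apart, with correlations of 0.982 to 0.991 to the others against 0.995 to 0.999 among the other 5. Array medians were 7.61 to 7.65 and lower quartiles 6.85 to 6.89, and no detection calls were in the table. Of 14 listed colon epithelium markers only LGALS4 and MUC2 were measured, at 7.23 to 7.35, and 6 of 12 markers of other cells were measured, at 5.96 to 7.62; whether these are above background is unknown.

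**Figure D1:**
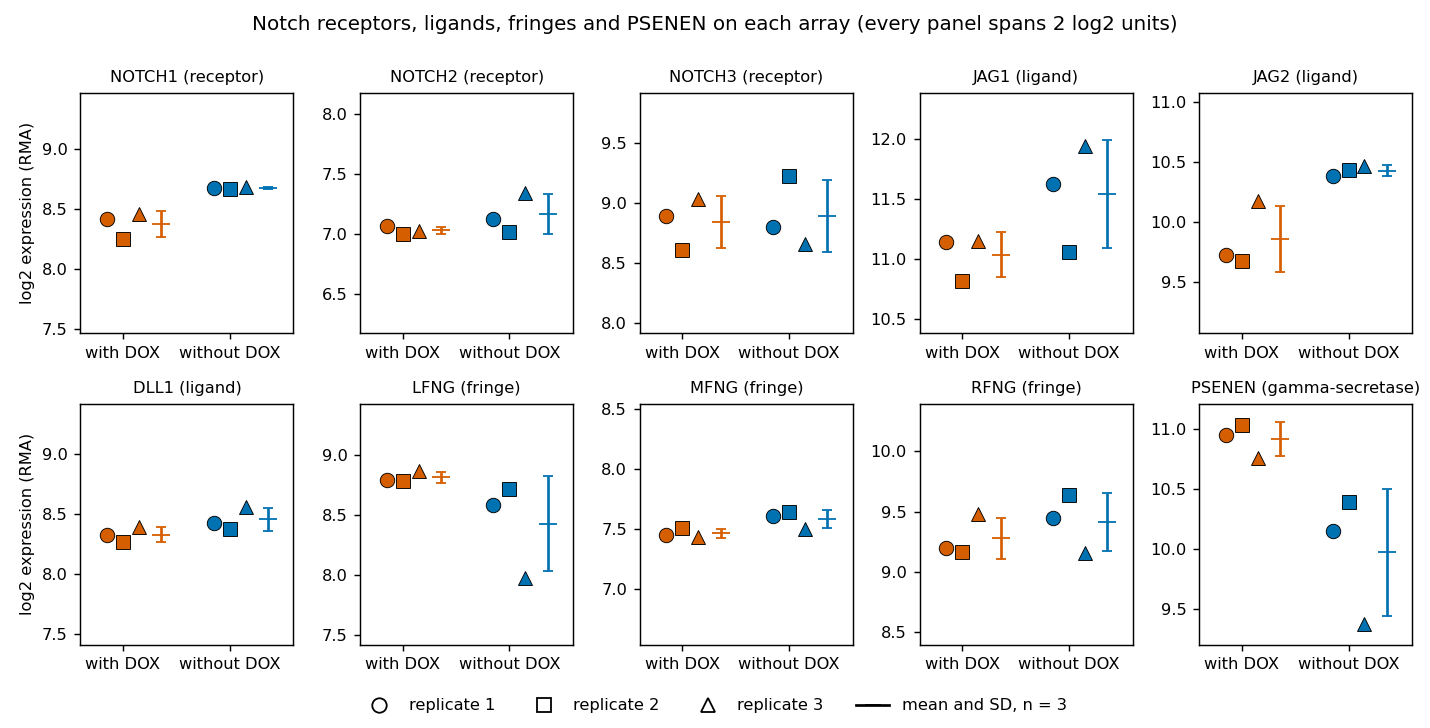
Log2 expression of each gene on the 6 arrays, with doxycycline in orange and without in blue; symbols mark the replicate number, bars the mean and SD of 3 arrays, and every panel spans 2 log2 units. JAG2 and NOTCH1 read lower on all 3 +DOX arrays, PSENEN and LFNG higher, and -DOX replicate 3 is far from its group for PSENEN and LFNG, as -DOX replicate 2 is for JAG1.

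Across the 10 genes, 8 had lower and 2 higher means with doxycycline, where 512 of all 927 named genes had lower and 415 higher means. The 8 include NOTCH3, whose sign changed with the arrays used. The median difference of the 10 genes was -0.13, against -0.01 over all named genes. Sizes were large for this array: the median absolute difference was 0.22 against 0.06 over all named genes, and 5 of 10 exceeded 0.25, against 16.9% of all named genes. These sizes describe genes picked with the differences known. None of the 11 probe sets passed an adjusted p of 0.05 with limma, where 0.0% of the 1259 did; at an unadjusted p under 0.05 there were 3, against 7.78% of all probe sets. The 3 +DOX arrays lay wholly apart from the 3 -DOX arrays for 4 of 11 probe sets, against 15.8% of all, 2 of them higher (7.55% of all) and 2 lower (8.26% of all). With -DOX replicate 3 left out 5 of 11 were apart, against 25.0% of all, 2 higher (8.98% of all) and 3 lower (16.0% of all).

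**Figure D2:**
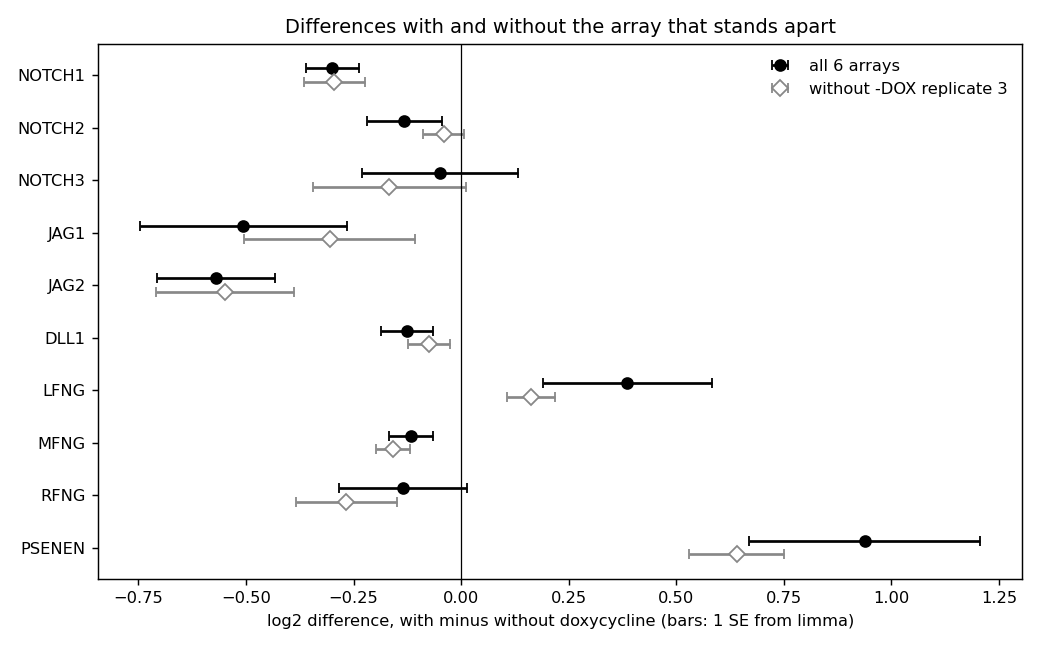
Difference of the group means, with minus without doxycycline, on the log2 scale for each gene, with bars of 1 SE from limma; filled circles use all 6 arrays and open diamonds leave out -DOX replicate 3. NOTCH1 and JAG2 hardly move between the settings, while LFNG goes from 0.39 to 0.16 and PSENEN from 0.94 to 0.64.

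Of the receptors, NOTCH1 read lower with doxycycline and the others overlapped between groups. NOTCH1, the receptor most studied in crypt progenitors and T cells, was at 8.42, 8.25 and 8.46 in +DOX replicates 1, 2 and 3. In -DOX replicates 1, 2 and 3 it was at 8.67, 8.66 and 8.68, the narrowest -DOX group among the 10 genes. All -DOX arrays therefore lay above all +DOX arrays, and the array that otherwise stood apart did not do so for NOTCH1. The group means were 8.37 ± 0.11 and 8.67 ± 0.01 (SD, n = 3 each), a difference of -0.30 (SE 0.06) or 1.23-fold. It was -0.29 (SE 0.07) without -DOX replicate 3.

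NOTCH2, which acts beside NOTCH1 in crypt progenitors, was at 7.06, 7.00 and 7.02 with doxycycline and at 7.12, 7.02 and 7.34 without, in replicates 1, 2 and 3. All of these values lie under the arrays' medians. Replicate 2 without doxycycline lay among the +DOX arrays, and -DOX replicate 3 was the highest of 6. The difference of -0.13 (SE 0.09) became -0.04 (SE 0.05) without that array. Human NOTCH2 has near-identical partial copies, the NOTCH2NL genes; whether the probes read them is not known.

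NOTCH3, best known from vascular smooth muscle, varied within both groups, at 8.89, 8.60 and 9.03 with doxycycline and 8.79, 9.22 and 8.65 without. The highest and the second lowest value were both -DOX arrays. Its difference of -0.05 (SE 0.18) was -0.17 (SE 0.18) without -DOX replicate 3 and turned to 0.12 without -DOX replicate 2 and to 0.07 without +DOX replicate 2. No direction can therefore be given for NOTCH3.

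All 3 ligand genes had lower means with doxycycline, JAG2 with separated groups. JAG2, a transmembrane Jagged ligand, was at 9.72, 9.68 and 10.17 in +DOX replicates 1, 2 and 3 and at 10.38, 10.43 and 10.47 in -DOX replicates 1, 2 and 3. The -DOX arrays lay within 0.09 of each other, while +DOX replicate 3 read well above the other +DOX arrays and 0.21 below the lowest -DOX array. Means were 9.86 ± 0.27 and 10.43 ± 0.05 (SD, n = 3 each), a difference of -0.57 (SE 0.14), or 1.48-fold higher without doxycycline. Among the 927 named genes this was place 5 counted from the lowest difference, with all arrays and also without -DOX replicate 3, where it was -0.55 (SE 0.16). Without +DOX replicate 3 it was -0.73.

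JAG1, the Jagged ligand mutated in Alagille syndrome, was at 11.14, 10.82 and 11.15 with doxycycline. In -DOX replicates 1, 2 and 3 it was at 11.63, 11.06 and 11.94, so -DOX replicate 2 lay within the +DOX range and the other -DOX arrays above it. The difference of -0.51 (SE 0.24) was -0.31 (SE 0.20) without -DOX replicate 3, -0.75 without -DOX replicate 2, and -0.02 when -DOX replicate 2 was the only -DOX array kept. Unlike JAG2, its value thus rests on -DOX replicates 1 and 3. DLL1, a Delta ligand of the intestinal secretory lineage, was at 8.32, 8.27 and 8.39 with doxycycline and at 8.43, 8.38 and 8.56 without. Its groups overlapped at their edges, and its difference of -0.13 (SE 0.06) was -0.07 (SE 0.05) without -DOX replicate 3. The probe sets of JAG1, JAG2 and the brighter one of LFNG end in _s_at, which in this array maker's naming marks probes shared between transcripts.

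The fringe genes did not move alike. LFNG, lunatic fringe, was at 8.80, 8.78 and 8.87 in +DOX replicates 1, 2 and 3 and at 8.59, 8.72 and 7.98 in -DOX replicates 1, 2 and 3. The groups did not overlap, by a margin of 0.06, and -DOX replicate 3 read far below every other array. Its difference was 0.39 (SE 0.20), and 0.16 (SE 0.06) without that array. The other LFNG probe set, made for another transcript of the gene, was at 7.28, 7.24 and 7.35 with doxycycline and 7.27, 7.36 and 7.15 without, with overlapping groups. It differed by 0.03 (SE 0.06), and by -0.02 (SE 0.05) without -DOX replicate 3, so the separation of LFNG was seen in 1 of its 2 probe sets.

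MFNG, manic fringe, was at 7.45, 7.51 and 7.44 with doxycycline and at 7.61, 7.64 and 7.50 without. Here -DOX replicate 3 was the lowest of its group and the only -DOX array within the +DOX range. The difference of -0.12 (SE 0.05) was -0.16 (SE 0.04) without it, and the remaining groups were then apart. RFNG, radical fringe, was at 9.19, 9.16 and 9.48 with doxycycline and at 9.45, 9.64 and 9.15 without. The array of -DOX replicate 3 was the lowest of all 6, and +DOX replicate 3 lay above -DOX replicate 1. Its difference was -0.14 (SE 0.15), -0.27 (SE 0.12) without -DOX replicate 3 and -0.02 without -DOX replicate 2.

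PSENEN, which encodes the small subunit PEN-2 needed to mature gamma-secretase, had the highest difference of all 927 named genes. It was at 10.95, 11.03 and 10.76 in +DOX replicates 1, 2 and 3 and at 10.16, 10.39 and 9.38 in -DOX replicates 1, 2 and 3. The lowest +DOX array lay 0.36 above the highest -DOX array, and -DOX replicate 3 differed by -0.89 from the mean of the other -DOX arrays. Means were 10.91 ± 0.14 and 9.98 ± 0.53 (SD, n = 3 each), a difference of 0.94 (SE 0.27) or 1.92-fold. Without -DOX replicate 3 it was 0.64 (SE 0.11), 1.56-fold and place 2 from the highest, and with -DOX replicate 2 as the only -DOX array 0.52. PSENEN had 1 probe set, so no other probes bear on it.

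**Figure D3:**
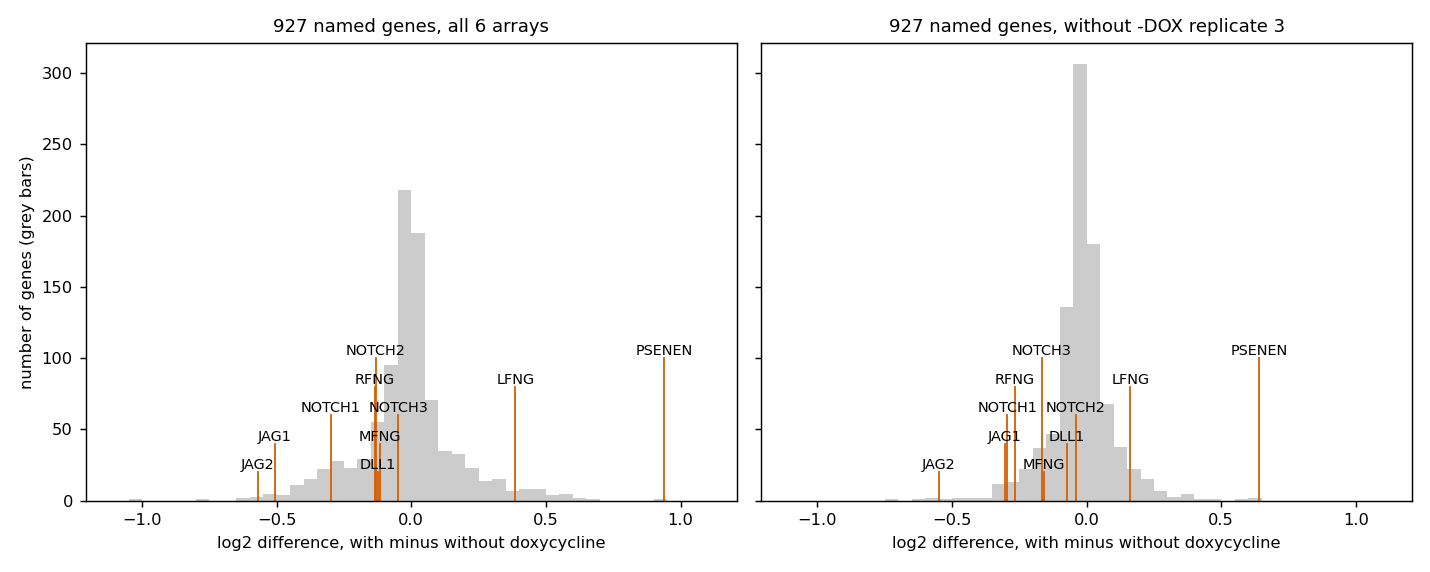
Histograms of the log2 difference, with minus without doxycycline, over 927 named genes with all 6 arrays (left) and without -DOX replicate 3 (right); orange lines, with heights set only for legibility, mark the 10 genes. PSENEN at 0.94 and JAG2 at -0.57 lie in the tails of the left panel and at 0.64 and -0.55 in those of the right.

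For the genes with the highest and lowest difference, PSENEN and JAG2, the 250 bases before the annotated start are shown, read from RefSeq promoter sequences of GRCh38.p14. The PSENEN window is chr19:35745401-35745650 on the plus strand and the JAG2 window chr14:105168777-105169026 on the minus strand. Both are written 5′ to 3′ in lower case, with the RBPJ core motif TGGGAA, searched on both strands, in capitals.
PSENEN: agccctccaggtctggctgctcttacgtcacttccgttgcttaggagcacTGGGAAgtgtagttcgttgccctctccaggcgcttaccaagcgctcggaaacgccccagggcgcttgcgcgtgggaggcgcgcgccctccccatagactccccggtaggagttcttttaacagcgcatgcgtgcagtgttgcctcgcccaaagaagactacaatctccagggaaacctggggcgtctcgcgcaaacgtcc
JAG2: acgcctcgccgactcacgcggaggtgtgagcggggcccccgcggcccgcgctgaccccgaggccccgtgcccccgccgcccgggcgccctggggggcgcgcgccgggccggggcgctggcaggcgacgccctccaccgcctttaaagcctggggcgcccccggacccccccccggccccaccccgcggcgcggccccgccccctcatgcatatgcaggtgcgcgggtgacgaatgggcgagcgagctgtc
The PSENEN window held 1 match, which began 200 bases before the start, and the JAG2 window none. G and C made up 61.2% of the PSENEN window and 81.6% of the JAG2 window, against a median of 58.0% over 35116 windows. Sequences were found for 8 of the 10 genes, in 9 windows, since LFNG had 2. The RBPJ core was in 2 of these 9 windows, against 20.8% of all, and the SMAD element CAGAC, also on either strand, in 2 of 9, against 38.0% of all. A match shows only that these letters are present.

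The other Notch pathway genes were described from a textbook list of 49 components, of which 12 were measured. With limma 0 of these 12 passed an adjusted p of 0.05 in either direction. At an unadjusted p under 0.05 there were 0, against 7.3% of all named genes. With doxycycline 7 had higher and 5 lower means, with a median difference of 0.01. Several of them belong to gamma-secretase, the complex that PSENEN completes. APH1A, its scaffold subunit, was at 10.82, 10.73 and 10.76 in +DOX replicates 1, 2 and 3 and at 10.57, 10.55 and 9.83 in -DOX replicates 1, 2 and 3. By the probe set that represents each gene, it alone of the 12 had separated groups, or 8.3% against 16.2% of all named genes. A dimmer DLL3 probe set was also apart, lower with doxycycline by a margin of 0.0003. The difference of APH1A, 0.45 (SE 0.21, limma, adjusted p = 0.675), was 0.21 (SE 0.04) without -DOX replicate 3. APH1B, the alternative scaffold subunit, differed by 0.17 (SE 0.13; limma, adjusted p = 0.73), and by 0.03 without that array.

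NCSTN, encoding nicastrin, and PSEN2, a presenilin gene, were picked after their values were seen, as further subunits. They differed by -0.10 (SE 0.10; limma, adjusted p = 0.731) and 0.0021 (SE 0.03; limma, adjusted p = 0.992). The -DOX replicate 3 array was the lowest of 6 for PSENEN, APH1A and APH1B and the highest of 6 for PSEN2 and NCSTN. For PSEN2 that was 8.736 against 8.730 on the next highest array, +DOX replicate 3, so PSEN2 was nearly flat. On -DOX replicate 3 NCSTN thus went the other way from PSENEN, APH1A and APH1B.

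HES1, a transcriptional repressor switched on by Notch, was at 9.91, 9.91 and 9.86 with doxycycline and at 9.53, 9.88 and 9.18 without. The +DOX arrays lay within 0.06 of each other, and -DOX replicate 2 lay inside their range. Its difference of 0.36 (SE 0.17; limma, adjusted p = 0.681) was 0.19 (SE 0.10) without -DOX replicate 3. NOTCH4, the remaining receptor gene, was at 7.54, 7.48 and 7.57 with doxycycline and at 7.51, 7.55 and 7.10 without, so that its difference of 0.14 (SE 0.13; limma, adjusted p = 0.73) was 0.0004 without -DOX replicate 3. POFUT1, which adds the O-fucose that fringes extend, differed by -0.08 (SE 0.06; limma, adjusted p = 0.73) with overlapping groups.

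**Figure D4:**
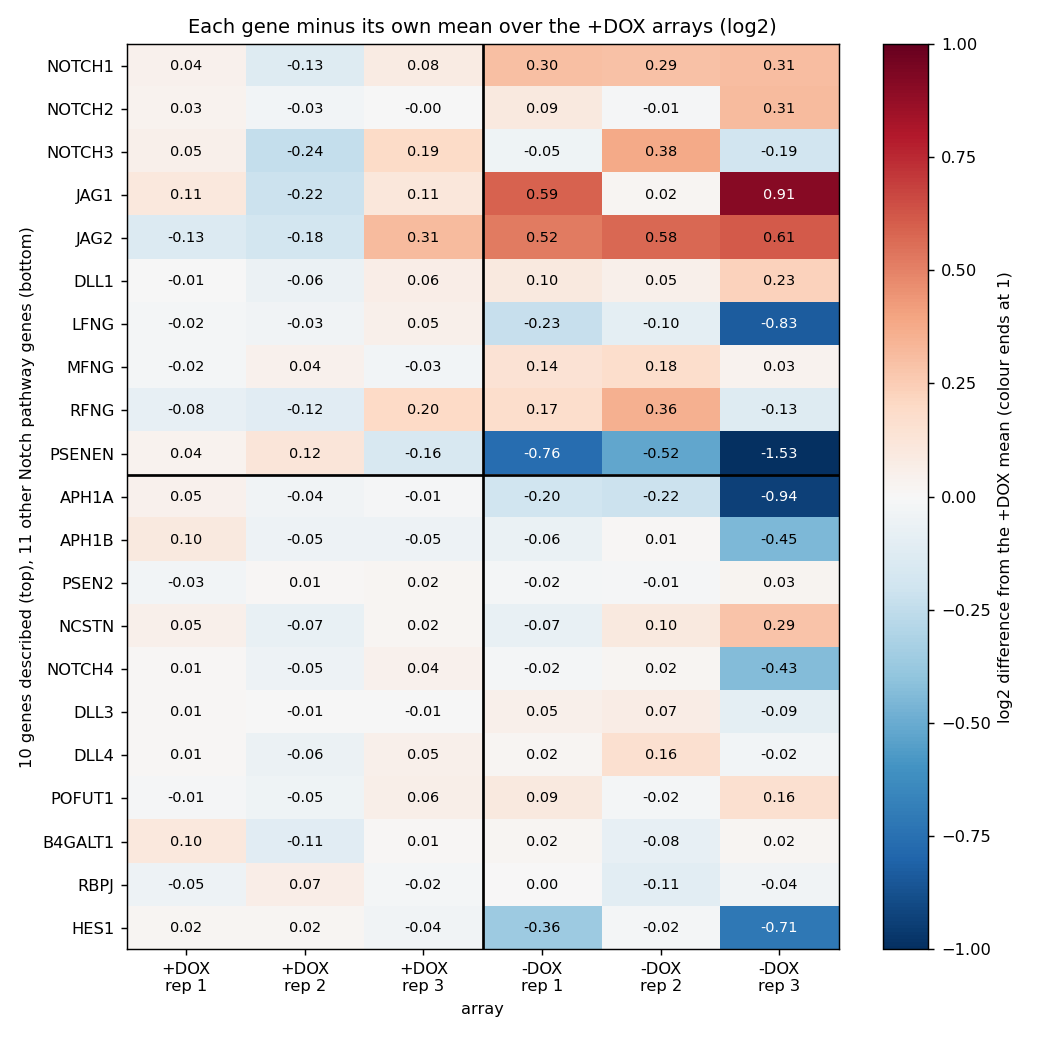
Each cell gives a gene's log2 value on an array minus that gene's mean over the 3 +DOX arrays, for the 10 genes (above the line) and 11 other Notch pathway genes (below it); red is higher, blue lower, and the colour ends at 1. NOTCH1 and JAG2 read higher on all 3 -DOX arrays by similar amounts, whereas most other large values sit in the -DOX replicate 3 column.

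The array of -DOX replicate 3 was the highest or lowest of 6 for 9 of the 11 probe sets, against 61.6% of all probe sets. It was highest for NOTCH1, NOTCH2, JAG1, JAG2 and DLL1 and lowest for both LFNG probe sets, RFNG and PSENEN. Leaving it out kept the sign of all 10 genes, and of 742 of all 927 named genes. The dimmer LFNG probe set turned, from 0.03 to -0.02. Leaving out -DOX replicate 3 shrank the difference by over 1.5 times for NOTCH2, JAG1, DLL1 and LFNG. That is 4 of 10 genes, where 55.3% of all named genes shrank that far or turned. For NOTCH3 and RFNG the difference grew by over 1.5 times.

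The genomic span of a gene, introns included, also went with that array. Across 927 named genes, which are not independent of each other, the Spearman correlation between span and the value on -DOX replicate 3 minus the +DOX mean was 0.37; it was 0.20 for -DOX replicate 1 and -0.23 for -DOX replicate 2. Between span and the group difference it was -0.25 with all arrays and -0.01 without -DOX replicate 3. PSENEN has the shortest span of the 10 genes, 1.9 kb, and differed from its +DOX mean by -1.53 on -DOX replicate 3, -0.76 on replicate 1 and -0.52 on replicate 2. JAG1, at 36.3 kb, read 0.91 above it on replicate 3, 0.59 on replicate 1 and 0.02 on replicate 2. JAG2, at 27.8 kb, read 0.61, 0.52 and 0.58 above it on replicates 3, 1 and 2, and NOTCH1, at 51.6 kb, 0.31, 0.30 and 0.29. NOTCH3, at 42.0 kb, ran against the correlation on every -DOX array, with -0.19, -0.05 and 0.38 on replicates 3, 1 and 2. PSENEN and JAG1 differed most on the arrays where span correlated positively with the deviation. PSENEN also read low on replicate 2, where the correlation was negative. NOTCH3 ran the other way, and JAG2 and NOTCH1 differed alike on all 3 arrays. RFNG, at 3.9 kb, differed from its +DOX mean by -0.13, 0.17 and 0.36 on replicates 3, 1 and 2, against the correlation on replicate 1 only. The median span was 20.3 kb. NOTCH2, at 158.1 kb, differed by 0.31, 0.09 and -0.01 on replicates 3, 1 and 2, with the correlation on each. LFNG, at 16.6 kb, differed by -0.83, -0.23 and -0.10, with it on replicates 3 and 1. DLL1, at 8.9 kb, differed by 0.23, 0.10 and 0.05, and MFNG, at 17.3 kb, by 0.03, 0.14 and 0.18. Both ran with it on replicate 2 only. The part of span in these differences was not tested.

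**Figure D5:**
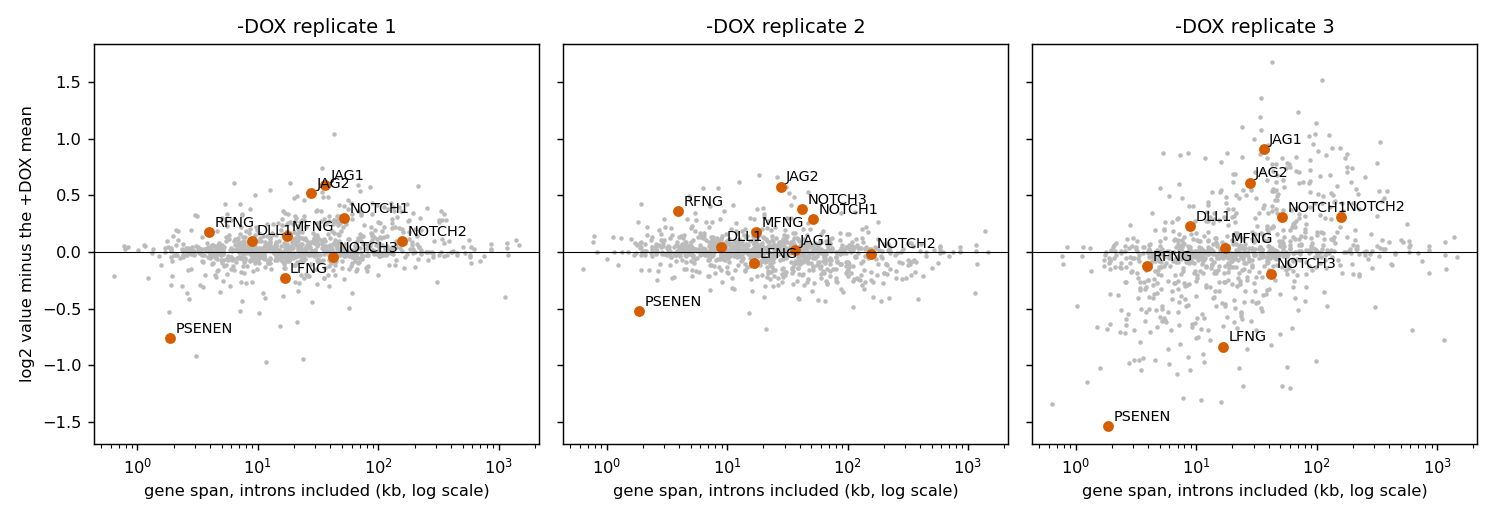
Log2 value of each named gene on a -DOX array minus its mean over the +DOX arrays, against the gene's span in kb on a log scale; grey dots are 927 genes and orange dots the 10 genes, with a panel for each -DOX replicate. The cloud tilts upward for replicate 3 (Spearman 0.37), where PSENEN lies lowest of the 10 at -1.53 and JAG1 highest at 0.91.

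The genes nearest in pattern were found by the root mean square distance between log2 values, each centred on its own mean over the 6 arrays. Nearest to NOTCH1 were MST1R, a receptor tyrosine kinase gene (distance 0.03), the hexokinase gene HK1 (0.05) and EXTL3, of heparan sulphate synthesis (0.06). Their differences were -0.32 (SE 0.05), -0.30 (SE 0.07) and -0.19 (SE 0.07), and without -DOX replicate 3 they were -0.32, -0.30 and -0.20. They were chosen for likeness to NOTCH1 on all 6 arrays, so their differences, with or without that array, carry no information of their own. Nearest to JAG2 were the cytokine gene LIF (0.15), HDLBP, an RNA-binding protein gene (0.16), and the sulphotransferase gene GAL3ST4 (0.16). Those near JAG2 differed by -0.48 (SE 0.13), -0.30 (SE 0.11) and -0.42 (SE 0.05), and by -0.59, -0.25 and -0.43 without -DOX replicate 3. Nearest to PSENEN were the galectin gene LGALS3 (0.16), the sialic acid transporter gene SLC17A5 (0.18) and S100A10, which encodes an annexin-binding protein (0.20). The differences of those near PSENEN were 0.68, 0.60 and 0.63, and 0.36, 0.29 and 0.29 without -DOX replicate 3. The genes near JAG2 and PSENEN were likewise chosen for likeness on all 6 arrays, so their differences carry no information of their own.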

How the data were processed

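The deposited table holds log2 expression values of 1259 probe sets on 6 single-colour arrays, which the authors made with RMA, per the submitters' processing notes; RMA corrects background, quantile normalizes arrays and summarises probes. Per the labels' protocols, Trizol-extracted RNA became biotinylated cRNA by the standard Affymetrix method. Raw array scans were not analysed here. Symbols came from the RefSeq accession in each identifier, without its version, and RefSeq genes of GRCh38.p14: 1043 (82.8%) had 1 symbol, 190 carried no RefSeq accession and 26 an accession outside the table. The sources used here give no build for the array, so that assembly served only for names, spans and promoter windows, whose coordinates are its own.

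Groups came from the sample titles. All 1259 probe sets were fitted in R 4.3.3 with limma 3.58.1 (a group-means model with lmFit, then eBayes; +DOX minus -DOX, two-sided), with Benjamini-Hochberg adjustment and a threshold of 0.05. A gene is represented by its probe set with the highest mean over the 6 arrays. The fit was tested on simulated data. No pair of arrays held identical values. With 3 arrays in each group, their number limits the precision.

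The members and lists were chosen with earlier results of these data known. The naming rule takes all 10 genes, ACVR2A, the 6 other pathway genes with the smallest unadjusted p, and the 3 genes nearest in pattern to NOTCH1 and to the genes with the highest and lowest difference; a gene that it takes is not reported here. Alternatives left out each array, changed the scaling, weights, variance moderation, dim filter (mean over 6.88) and probe set rule, or added a replicate block; keeping -DOX replicate 2 as the only -DOX array was chosen after seeing the data.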

Additional observations from a re-analysis of the deposited data

How the results depend on the processing

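With limma, the count of probe sets past an adjusted p of 0.05 was 0 with all arrays and 0 under every alternative run except array weights, where it was 1, a probe set of none of the genes described; the weight estimation stopped before its convergence tolerance was reached and gave -DOX replicate 3 a weight of 0.198. At an unadjusted p under 0.05 the count was 98, and between 45 and 258 when single arrays were left out. The counts of the 10 genes' probe sets and of other pathway genes past the threshold were 0 under all alternatives. The median difference of the 10 genes was -0.13, and between -0.16 and -0.11 when single arrays were left out. Of 150 differences of single genes under alternatives, 6 moved by more than the gene's spread within groups. All 6 were with -DOX replicate 2 as the only -DOX array, a fit in which that array is assumed to vary like the +DOX arrays. The count of 6 does not measure stability. Leaving out a single array cannot move a difference beyond this spread, because the spread includes that array. The replicate block, the changes of variance moderation and the dim filter could not change a difference. Averaging a gene's probe sets could change only that of LFNG. The values under these settings still count among the 150. The sign changed in 4 of the 150: for NOTCH3 at 3 settings, without +DOX replicate 2 (0.07), without -DOX replicate 2 (0.12) and with array weights (0.0074), and for NOTCH2 (0.01) with -DOX replicate 2 as the only -DOX array. The other 8 genes kept their sign at every setting, including those that could not change it. The labels do not say what a shared replicate number stands for, so the numbers were not taken to pair the samples. Same-numbered arrays did not deviate together (correlations of -0.15, -0.04 and -0.16). Deviations were taken from means of 3 arrays, which -DOX replicate 3 shifts, so these correlations cannot show that pairing is absent. With the replicate block the count of probe sets past the threshold was 0. At an unadjusted p under 0.05 with limma, the block gave 81 of 1259 probe sets and 5 of the 10 genes. Without the block there were 98 of 1259 probe sets and 3 of the 10 genes. The genes were picked with the differences known, so the rise from 3 to 5 adds no evidence. The number of arrays and the lack of detection calls limit what can be said of NOTCH2, MFNG and the dimmer LFNG probe set, whose values lie below the array medians.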

Other observations

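Among the other Notch pathway genes, 2 had several probe sets. DLL3, a divergent Delta ligand that acts mainly inside the cell, differed by -0.01 (SE 0.05) in its brightest probe set and by -0.05 (SE 0.05) and -0.04 (SE 0.03) in the others. POFUT1 differed by -0.08 (SE 0.06), -0.04 (SE 0.06) and -0.12 (SE 0.06) over its probe sets, all of one sign, and -DOX replicate 3 was the highest of 6 in each. DLL4, a Delta ligand best known from blood vessels, and B4GALT1, which adds galactose to the sugar that fringes attach, differed by -0.05 (SE 0.06) and 0.01 (SE 0.07). RBPJ, the DNA-binding partner of cleaved Notch, was at 6.23 to 6.41 on all arrays, under the arrays' lower quartiles, and differed by 0.05 (SE 0.05). These genes were named after their values were seen, and 0 of them passed an adjusted p of 0.05 with limma. At an unadjusted p under 0.05 there were 0, against 7.78% of all probe sets.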
